A study of Mus musculus with 18 samples.

Results

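Expression in the retinal pigment epithelium (RPE) of old mice was compared between a vector that carries OSK and a control vector that does not, across all genes measured. The members are the libraries whose titles place them in these groups, 7 of the 18 libraries of the series. The 4 Old OSK libraries come from old mice treated with AAV2-tTA;TRE-OSK, and the 3 Old control libraries from old mice treated with AAV2-tTA alone. Both groups are old and both received the AAV2 vector for tTA, and the treatment labels differ in TRE-OSK only. The remaining 11 libraries, from RPE of young mice (Young, 7) and old mice with no vector named (Old, 4), entered the model to estimate the spread between libraries and one further contrast. Strain, exact ages, vector doses, routes, times after injection, the number of animals per library and the promoter that drives tTA are not given in the sources used here. No label says that replicates came from separate animals, so p-values measure the spread between these libraries, which may be partly technical.

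The RPE is the pigmented monolayer behind the photoreceptors. It returns the visual chromophore to its light-sensitive form, takes up shed photoreceptor discs, moves ions and water towards the choroid and lays down part of Bruch's membrane. AAV2 vectors are derived from an adeno-associated virus. The protein tTA, controlled by tetracycline, switches on genes placed behind a TRE promoter. OSK is short for OCT4 (encoded by Pou5f1), SOX2 and KLF4, transcription factors that are used to reprogram differentiated cells. OCT4 and SOX2 bind DNA together at many sites in pluripotent cells, and KLF4 also has functions in surface epithelia such as the cornea and skin.

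The 7 libraries held 18104828 to 28489232 counts on genes. Levels are given as CPM, the count of a gene relative to the total of its library after TMM scaling between libraries. The RPE identity of the tissue was checked on 20 RPE markers. All 20 were detected, and their summed level was 97696, 31990 and 84422 CPM in Old control replicates 1, 2 and 3 and 47148, 29188, 39150 and 44926 CPM in Old OSK replicates 1 to 4. The lowest control lay below 3 of the 4 OSK libraries, so the groups overlapped. Old control replicate 2 stood apart from the other controls: 19 rod photoreceptor markers summed to 24185 CPM there, against 5178 and 2704 CPM in replicates 1 and 3. Old OSK replicate 4 stood apart in the same way, with 20202 CPM of rod markers against 4155 to 10166 CPM in the other 3 OSK libraries. A list of 23 genes of stratified surface epithelia, such as cornea and conjunctiva, was added after its values had been seen. It summed to 36044, 25201 and 23535 CPM in Old OSK replicates 1, 2 and 3, but to 4765 CPM in Old OSK replicate 4 and to 1856, 6089 and 3857 CPM in the controls. The same sum reached 25904 CPM in Old replicate 4, for which no vector is named. A list of 8 Schwann cell markers also summed to more in Old OSK replicates 1 to 3 (1729 to 2913 CPM) than in the other 4 vector libraries (657 to 776 CPM). Its sum in Old replicate 4 was 2242 CPM. Of the 7 Schwann markers tested, 5 had a positive log2 fold change in Old OSK against Old control (median 0.17). Markers of macrophages and microglia (972 to 1245 CPM) and of T and B cells (5.61 to 21.1 CPM) overlapped between the groups. The letter M stands in the names of Old control replicates 2 and 3 and of Old OSK replicate 4. These 3 libraries had 157 to 199 CPM on 4 Y-linked genes, against at most 2.66 CPM in the other 4, so 2 of 3 controls and 1 of 4 OSK libraries carried this signal. In bulk tissue, fewer cells of a type and less RNA per cell cannot be told apart.

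**Figure D1:**
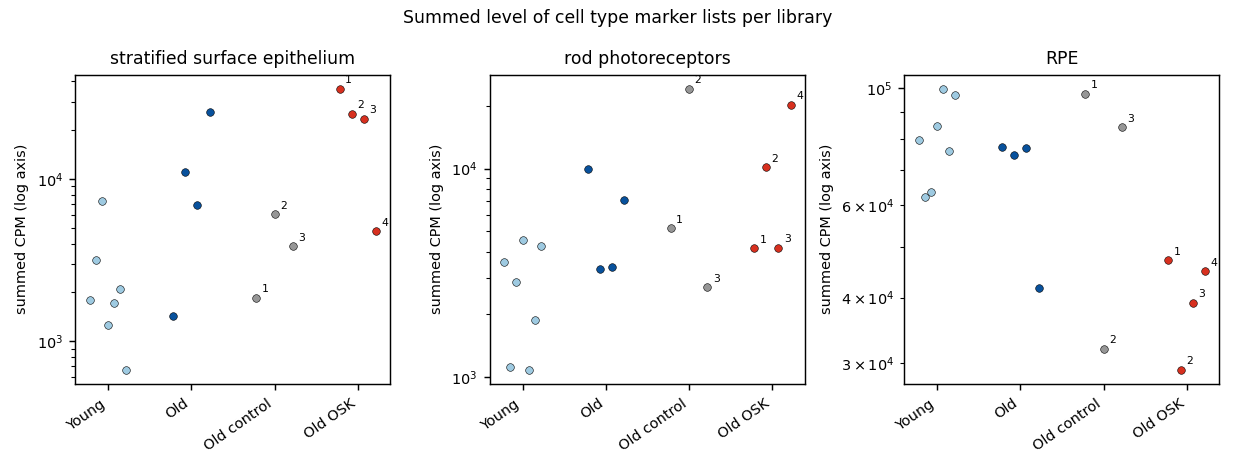
Summed CPM (log axis) of the markers of surface epithelium, rods and RPE, 1 panel per list and 1 point per library in Young, Old, Old control and Old OSK, with replicate numbers beside the vector libraries. Surface epithelium markers were high in Old OSK replicates 1 to 3 and in 1 Old library, and rod markers were high in Old control replicate 2 and Old OSK replicate 4.

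The comparison asks which transcripts differ in old RPE after OSK. Of 15944 genes tested, 65 rose (0.408%) and 51 fell (0.32%) at an adjusted p under 0.05 in edgeR's quasi-likelihood test. The genes that rose moved further: their median log2 fold change was 1.66, and 26 of the 65 rose by at least 2 on the log2 scale. Those that fell had a median of -0.64, and 1 of the 51 fell by at least 2. That gene was the model Gm15155, at 0.278 to 0.594 CPM in the controls and at 0 to 0.083 CPM after OSK. The median over all genes tested was -0.03. In all 65 genes that rose, every Old OSK library lay above every Old control library, as it did in 6.55% of all genes. In 48 of the 51 that fell, every Old OSK library lay below every control, against 5.84% of all genes. The 3 exceptions were Apln, Trhde and Jam3, a junctional adhesion molecule. In 49 of the 65 the Old OSK libraries also lay above all 14 other libraries of the series (1.32% of all genes), and in 33 of the 51 they lay below all 14 (1.24%). The called genes were picked by their p in these same libraries, so such separation is partly built in and is no further support. The genes that fell were expressed at a median of 5.61 log2 CPM over the 18 libraries, those that rose at 3.54 and all tested genes at 4.13. Old OSK replicate 4 was the OSK library nearest to the controls in 49 of the 65 genes that rose and in 30 of the 51 that fell.

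**Figure D2:**
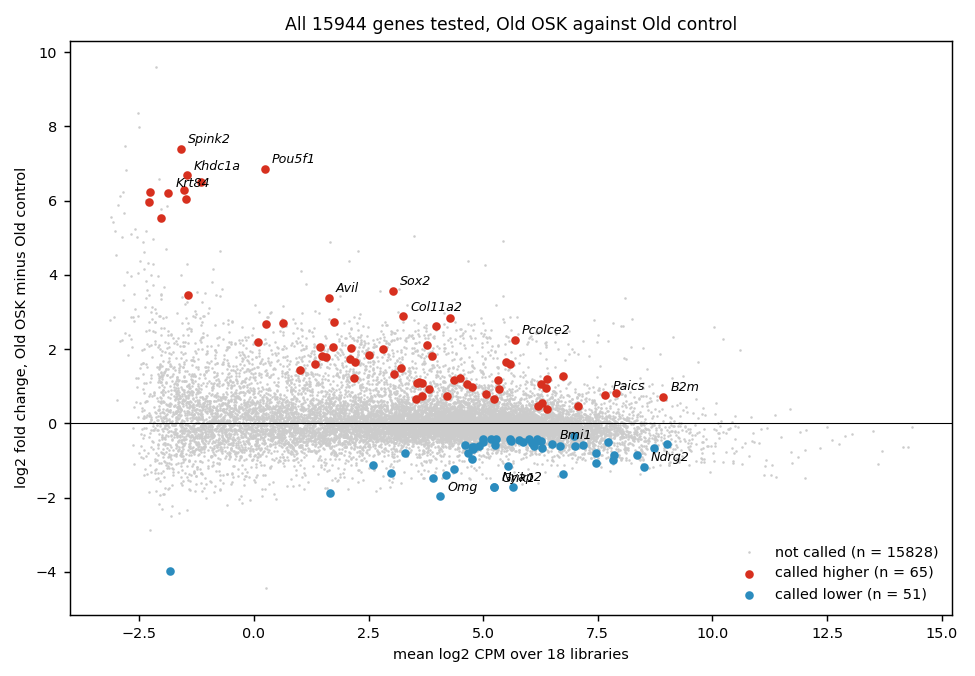
Log2 fold change of Old OSK against Old control (vertical axis) against mean log2 CPM over 18 libraries (horizontal axis), 1 point per tested gene. The 65 genes that rose and 51 that fell are coloured, and rises were larger (median 1.66) than falls (median -0.64).

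How many genes were called depended on single libraries and on covariates. Without Old control replicate 1, 12 rose and 1 (Nyap2) fell, and without Old control replicate 2, 1007 rose and 1874 fell. Without Old OSK replicates 1, 2 or 3, 28 to 40 rose and 8 to 12 fell, and without Old OSK replicate 4, 896 rose and 842 fell. Without Old control replicate 3, 50 rose and 18 fell. With a block for replicate number, fitted to the 6 paired libraries numbered 1 to 3, 381 rose and 80 fell, and 44 and 7 of these were among the 65 and 51. The numbers are those of the titles, and they differ from the numbers in the library names. With the letter M as a covariate 41 rose and 17 fell. With the surface epithelium score as a covariate 29 rose and 2 fell (Nyap2 and Phka1), and 27 of the 65 and 2 of the 51 were called in that fit. Every one of the 116 genes kept its direction in each of these fits that tested it. Genes called in all 7 fits without a vector library and with the block, M, the surface score and a rod score numbered 12. These were Pcolce2, Tspan17, Plekha4, Adam15, Dnah17, Sox2, Khdc1a, Cmtm7, Col11a2, Avil and Slc44a2, which rose, and Nyap2, which fell. The fit of the 2 vector groups alone, which is not among these fits, called Avil but none of the others.

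The genes that TRE-OSK carries separated the groups. Counts per gene do not separate vector transcripts from those of the mouse's own Pou5f1, Sox2 and Klf4. Pou5f1 was at 1.06, 0.338 and 0.556 CPM in the 3 control libraries and at 66.3, 97.4, 86.7 and 50.1 CPM in the 4 OSK libraries. Sox2, which is also expressed in glia and surface epithelium, was at 2.80, 15.9 and 4.64 CPM in the controls and at 84.5, 115, 103 and 70.0 CPM after OSK. Klf4 was at 24.2, 31.4 and 33.6 CPM in the controls and at 432, 362, 334 and 155 CPM after OSK. For all 3 genes the groups did not overlap, and Old OSK replicate 4 was the lowest OSK library. Pou5f1 and Sox2 rose over all genes tested (edgeR adjusted p = 0.024 and 0.00343), while the adjusted p of Klf4 was 0.0631, and 0.0307 with the block. All 7 fits without 1 vector library called Sox2, but 2 of the 7 called Pou5f1 and 2 called Klf4. The adjusted p of Pou5f1 and Klf4 was highest without Old control replicate 1 (0.13 and 0.332). Klf4 also stood at 216 CPM in Old replicate 4, the library with no vector named that had a high sum of surface epithelium markers. With the surface score as a covariate, Sox2 kept a log2 fold change of 3.41 (edgeR adjusted p = 0.00997), and that of Pou5f1 was 5.39 (adjusted p = 0.0643).

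Of the 11 genes that rose in all of these fits, Pcolce2, Col11a2 and Adam15 encode proteins of the matrix or the cell surface. Pcolce2 (chr9:95637601-95698096 in GRCm38), a secreted enhancer of procollagen processing, was at 37.4, 23.6 and 48.0 CPM in the controls and at 122, 206, 215 and 149 CPM in the OSK libraries. Col11a2, a chain of the fibrillar collagen type XI, was at 8.48, 7.64 and 8.29 CPM in the controls and at 34.4, 75.7, 87.7 and 42.9 CPM after OSK. Adam15, a membrane-bound metalloproteinase with a disintegrin domain, was at 32.2, 33.2 and 45 CPM in the controls and at 107, 138.5, 129 and 89.9 CPM after OSK. In each of these 3 genes the lowest OSK library lay above the highest control. On the log2 scale Col11a2 rose by 2.88 (SE 0.42, edgeR adjusted p = 0.00426) and Adam15 by 1.66 (SE 0.21, adjusted p = 0.00123). The tetraspanin Tspan17 was at 16.4 to 22.6 CPM in the controls and at 37.5 to 52.6 CPM after OSK. Plekha4, a phosphoinositide-binding adaptor, was at 9.37 to 11.8 CPM and at 27.7 to 56.6 CPM. The choline transporter-like protein Slc44a2 was at 58.9 to 80.7 CPM and at 113 to 167 CPM, so it rose by 1.06 (SE 0.16, edgeR adjusted p = 0.00523). None of these groups overlapped.

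**Figure D3:**
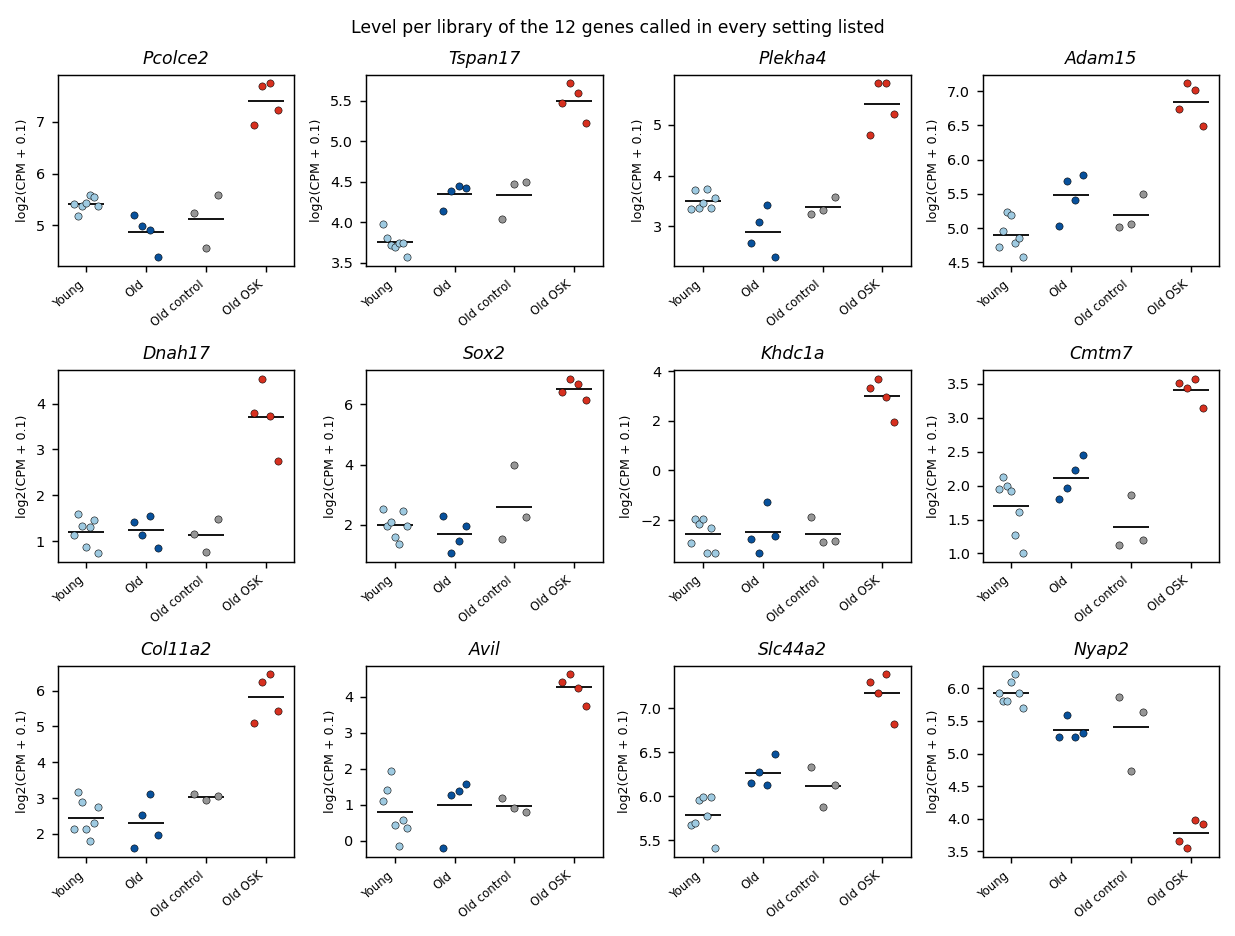
Level as log2(CPM + 0.1) in each library (points) with the group mean (bars) in Young, Old, Old control and Old OSK, for the 12 genes called in all 7 fits without a vector library and with each covariate and the block. The Old OSK libraries lie above the Old control libraries for 11 genes and below them for Nyap2.

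Avil, Dnah17 and Cmtm7, also called in all of these fits, were at low levels in the controls. Avil, an actin-binding protein of the villin family, was at 2.16, 1.79 and 1.63 CPM in the controls and at 21.1, 24.4, 18.8 and 13.4 CPM after OSK. Dnah17, a heavy chain of axonemal dynein, was at 2.12, 1.59 and 2.7 CPM in the controls and at 13.9, 23.2, 13.2 and 6.64 CPM after OSK. Cmtm7, a membrane protein with a MARVEL domain, was at 2.08, 3.52 and 2.18 CPM and at 11.3, 10.7, 11.8 and 8.68 CPM. The OSK libraries of all 3 genes lay well above the controls. Their log2 fold changes were 3.38 (SE 0.50), 2.73 (SE 0.37) and 2.03 (SE 0.29), with edgeR adjusted p of 0.0045, 0.00226 and 0.00381. The protease inhibitor Serpinb1a was at 5.89, 20.8 and 13.9 CPM in the controls and at 93.3, 160.0, 90.2 and 46.9 CPM after OSK. It rose by 2.85 on the log2 scale (SE 0.60, edgeR adjusted p = 0.0342), and 2 of the 7 fits without 1 vector library called it. These left out Old control replicate 2 and Old OSK replicate 4, and adjusted p was highest without Old control replicate 1 (0.221).

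Further rises affected membrane, cytoskeletal and biosynthetic genes. Paics, the bifunctional enzyme of de novo purine synthesis, was at 174, 166 and 169 CPM in the controls and at 266, 336, 300.5 and 251 CPM after OSK. Tmsb10, a thymosin that binds actin monomers, was at 34.1, 52.9 and 35.9 CPM and at 99.5, 92.1, 85.6 and 88.4 CPM. The groups of both genes lay apart, with a narrow spread among the controls of Paics and among the OSK libraries of Tmsb10. Tmsb10 rose by 1.16 on the log2 scale (SE 0.17, edgeR adjusted p = 0.0043). Litaf, a protein of late endosomes and lysosomes, rose by 0.79 (SE 0.13, edgeR adjusted p = 0.00729). The tetraspanin Cd9 rose by 1.27 (SE 0.21, adjusted p = 0.0102) and Tmbim1, a membrane protein of the lifeguard family, by 1.18 (SE 0.20, adjusted p = 0.0115). With the replicate block Paics (adjusted p = 0.0557) and Litaf (0.0507) were not called. Without Old control replicate 1, Tmsb10, Litaf, Cd9 and Tmbim1 were not called either (adjusted p = 0.0556 to 0.105).

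Some genes were close to absent outside Old OSK. In 19 genes every one of the 14 other libraries had under 1 CPM and every Old OSK library had at least 1 CPM. This set was defined after the values had been seen. 6 of the 19 were among the 65 genes that rose (0.408% of all genes tested): Khdc1a, Khdc1c, Spink2, Krt84, Bglap2 and Eif4e1b. The set was picked for high values in Old OSK, so this count is built in and is no further support. With the surface score as a covariate, Khdc1a and Spink2 were called (edgeR adjusted p = 0.0255 and 0.0259). Khdc1c, Krt84, Bglap2 and Eif4e1b were not (adjusted p = 0.0911 to 0.121). Khdc1a, a KH-domain gene known from oocytes and early embryos, was at 0.170, 0.034 and 0.040 CPM in the controls and at 9.78, 12.85, 7.67 and 3.81 CPM after OSK. Its neighbour and paralog Khdc1c was at 0 to 0.159 CPM and at 9.34, 11.7, 6.18 and 2.79 CPM, and reads of these similar genes may have been exchanged. Eif4e1b, a germline relative of the cap-binding translation factor eIF4E, was at 0.254, 0.135 and 0.079 CPM and at 9.25, 17.0, 10.1 and 5.46 CPM. In all 3 genes Old OSK replicate 2 was the highest library and Old OSK replicate 4 the lowest of the OSK group. Spink2, a serine protease inhibitor known from the testis, was at 0.042, 0 and 0.079 CPM in the controls and at 6.63, 11.4, 8.13 and 3.35 CPM after OSK. Bglap2, which encodes an osteocalcin, was at 0.254, 0.101 and 0.397 CPM and at 29.7, 30.1, 23.2 and 7.97 CPM. Krt84, a type II hair keratin, was at 0.085, 0 and 0.079 CPM and at 7.12, 5.49, 1.85 and 2.48 CPM. Fitted fold changes of genes this low in the controls depend on the prior count and are not given. Eif4e1b and Tspan17 are neighbours on the same strand of chromosome 13, 918 bases apart in the GRCm38 annotation used here (chr13:54783998-54788459 and chr13:54789377-54796776), so reads that run from one into the other could not be separated from either gene's own.

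The promoters of the called genes were searched for short forms of the sequences that OSK factors are known to bind. Sequences were taken from RefSeq (GRCm38.p6) and run from 250 bases before to 50 after a gene's start. A promoter was matched for 51 of the 65 genes that rose, 41 of the 51 that fell and 12509 of the genes tested. The letters searched, on both strands, were ATGCAAAT (octamer, bound by OCT4), ACAATG (bound by SOX factors), GGGNGTGG (bound by KLF factors) and GGGCGGGGC (GC box). The octamer stood in 1 of 51 promoters of genes that rose, 1 of 41 of genes that fell (Gpm6a, a membrane glycoprotein of neurons) and 1.63% of all. The SOX letters stood in 10 of 51 (19.6%), 5 of 41 (12.2%) and 9.30% of all, and the 5 were 1110002E22Rik, Bmi1, Coq10a, Scoc and Vldlr. The KLF letters stood in 15 of 51 (29.4%), 12 of 41 (29.3%) and 26.01% of all, and the GC box in 17 of 51 (33.3%), 8 of 41 (19.5%) and 22.7% of all. Among the genes that rose, Pou5f1 is counted under SOX, KLF and GC box, and Sox2 under GC box. The rise of these vector genes cannot be assigned to the mouse's own copies. A match is a description of the letters and not a binding site. 3 promoters are shown, the only octamer match among the genes that rose (Itpr3, the type 3 inositol trisphosphate receptor) and 1 example each for the SOX and KLF letters. Matched letters are in capitals, and a match on the other strand appears as its reverse complement. They lie at chr17:27057054-27057353 (plus strand), chr15:101532771-101533070 (minus strand) and chr17:34038888-34039187 (plus strand).
Itpr3: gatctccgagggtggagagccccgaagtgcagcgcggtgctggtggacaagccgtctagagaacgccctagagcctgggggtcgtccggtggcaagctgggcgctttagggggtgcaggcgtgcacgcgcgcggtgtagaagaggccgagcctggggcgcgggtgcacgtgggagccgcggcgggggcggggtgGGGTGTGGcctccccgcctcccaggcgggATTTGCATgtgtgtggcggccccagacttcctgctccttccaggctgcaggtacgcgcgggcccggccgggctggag
Krt84: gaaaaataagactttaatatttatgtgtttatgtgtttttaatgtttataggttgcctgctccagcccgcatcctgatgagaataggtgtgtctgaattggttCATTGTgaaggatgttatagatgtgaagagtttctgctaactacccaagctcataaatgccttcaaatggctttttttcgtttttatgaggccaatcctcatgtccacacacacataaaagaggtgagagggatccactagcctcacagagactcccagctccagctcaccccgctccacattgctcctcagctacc
Col11a2: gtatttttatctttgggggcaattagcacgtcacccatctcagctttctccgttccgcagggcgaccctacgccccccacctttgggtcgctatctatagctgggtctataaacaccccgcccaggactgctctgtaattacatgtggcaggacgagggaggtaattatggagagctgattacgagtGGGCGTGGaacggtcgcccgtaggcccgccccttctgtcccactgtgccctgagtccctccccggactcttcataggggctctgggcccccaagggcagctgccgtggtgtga
In Itpr3 the octamer appears as its reverse complement, downstream of a KLF match, and the gene was at 23.9, 33.6 and 38.7 CPM in the controls and at 96.2, 113, 115 and 65.3 CPM after OSK. Its groups lay apart, and its log2 fold change was 1.6 (SE 0.28, edgeR adjusted p = 0.0125). In Krt84 the SOX letters appear as their reverse complement, and in Col11a2 the KLF letters stand on the gene's own strand.

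Nyap2, Grik1 and Omg were among the genes that fell by more than 1 on the log2 scale. Nyap2 (chr1:81076950-81341764 in GRCm38), a phosphoprotein that couples to phosphoinositide 3-kinase, was at 58.1, 26.6 and 49.8 CPM in the controls and at 12.5, 11.6, 15.8 and 15.1 CPM after OSK. Grik1, a kainate receptor subunit, was at 63.9, 31.1 and 37.5 CPM and at 9.97, 9.60, 12.6 and 21.3 CPM. Omg, a myelin glycoprotein, was at 35.5, 15 and 14.7 CPM and at 6.58, 4.61, 5.40 and 5.61 CPM. In each the highest OSK library lay below the lowest control. Old control replicate 2, with its high rod markers, was the control nearest to OSK for Nyap2 and Grik1, and for 35 of the 51 genes that fell. Grik1 fell by 1.72 on the log2 scale (SE 0.29, edgeR adjusted p = 0.0106) and Omg fell by 1.97 (SE 0.39, adjusted p = 0.0268). The bicarbonate transporter Slc4a10 was at 42.5, 43.2 and 26.3 CPM in the controls and at 10.4, 16.4, 16.5 and 20.8 CPM after OSK, so it fell by 1.22 (SE 0.23, edgeR adjusted p = 0.018). 1110002E22Rik, a gene without a name, was at 11.2 to 20.4 CPM and at 5.32 to 5.92 CPM. Apln, which encodes the secreted peptide apelin, was at 9.24, 1.69 and 3.69 CPM in the controls and at 1.6, 1.04, 1.70 and 0.930 CPM after OSK. Trhde, a membrane peptidase that degrades thyrotropin-releasing hormone, was at 103, 22.5 and 53.6 CPM and at 23.9, 11, 23.1 and 14.9 CPM. The groups of Apln and Trhde overlapped at Old control replicate 2, and without Old control replicate 1 their adjusted p was 0.332 and 0.306. In that fit Omg (edgeR adjusted p = 0.231), Slc4a10 (0.13), Grik1 (0.105) and 1110002E22Rik (0.0875) were not called either. Of the 7 fits without 1 vector library, 3 called Omg and 4 called Slc4a10.

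A further set of falls was small in size with narrow spread. Bmi1, a subunit of Polycomb repressive complex 1, was at 115, 99.4 and 85.6 CPM in the controls and at 65.7, 69.2, 65.5 and 70.5 CPM after OSK. Phka1, a regulatory subunit of phosphorylase kinase, was at 34.4, 28.5 and 31.4 CPM and at 19.3, 19.5, 21.1 and 20.8 CPM. Slmap, a tail-anchored membrane protein of the STRIPAK complex, was at 222, 220.0 and 215 CPM and at 157, 149.7, 159 and 154 CPM. In all 3 genes the OSK libraries lay closer to one another than to any control. Slmap fell by 0.50 on the log2 scale (SE 0.08, edgeR adjusted p = 0.0102). The ubiquitin ligase adaptor Kbtbd7 (log2 fold change -0.58), the vesicle protein gene Ccdc186 (-0.43), the lysosomal peptide transporter Abcb9 (-0.81), the sarcoglycan Sgcb (-0.51) and Pyurf (-0.58) also fell, with edgeR adjusted p between 0.0119 and 0.0208. With the replicate block, Bmi1, Phka1, Slmap and these 5 genes were not called (adjusted p = 0.0579 to 0.107), and none of the 8 was called without Old control replicate 1 (0.0783 to 0.157).

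Gene lists were then read as groups, each by its counts and its median log2 fold change. For comparison, 47.1% of all genes tested had a positive log2 fold change, and 4.42% were higher and 5.04% lower at the looser adjusted p under 0.1. Lists of RPE function differed in direction. Melanin genes were evenly divided (7 of 14 positive, median -0.20), while 9 of 14 genes of outer segment phagocytosis (median 0.15) and 10 of 13 of retinoic acid synthesis and response (median 0.48) had positive values, with 0 called in these 3 lists. Of 13 visual cycle genes, 12 had a negative log2 fold change (median -1.04), 0 were called and 6 were lower at the looser threshold. Rpe65, the isomerohydrolase that regenerates the chromophore, was at 4915, 1892 and 4193 CPM in the controls and at 2109, 1189, 1713 and 1919 CPM after OSK. Rdh5, a retinol dehydrogenase, was at 4466, 1203 and 3469 CPM and at 1641, 946, 1534 and 1488 CPM, and Rrh, an RPE opsin, was at 507, 148 and 311 CPM and at 189, 106, 163 and 152 CPM. In all 3 genes the groups overlapped because of Old control replicate 2, without which 11 of the 13 visual cycle genes (median -1.41) and 11.6% of all genes tested were called lower. Of the 20 RPE markers, 16 had negative values (median -0.83), 0 were called and 9 were lower at the looser threshold. With the surface epithelium score as a covariate the medians were -0.56 and -0.44, with 0 called. The part of other cells in these values was not tested.

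Transport, junction and matrix lists had medians nearer to 0. Of 20 RPE channels, pumps and transporters (median -0.45), 1 was called: Ano5, an anoctamin, was at 17.4, 8.66 and 11.6 CPM in the controls and at 4.40, 4.41, 6.28 and 4.87 CPM after OSK. Trpm3 and Slc4a5, a cation channel and a bicarbonate transporter, were not called (adjusted p = 0.0869 and 0.0928). Of 12 RPE transcription factors (median -0.19), 0 were called. Lhx2, an eye-field homeobox factor, was at 138, 83.6 and 123 CPM in the controls and at 77.2, 60.7, 72.3 and 80.6 CPM after OSK (edgeR adjusted p = 0.0588), and its groups did not overlap. Those of Otx2 (adjusted p = 0.0965) and Mitf (0.0924), master regulators of RPE fate, did. Of 22 junction genes (median 0.41) Cldn12, a claudin, fell: it was at 91.3, 56.6 and 72.7 CPM in the controls and at 47.3, 43.6, 46.9 and 54.5 CPM after OSK. Of 38 genes of matrix processing and Bruch's membrane (median 0.10), 2 rose, Pcolce2 and Ctsk. Ctsk, the collagen-degrading cathepsin K, was at 18.3, 17.3 and 21.6 CPM in the controls and at 32.1, 51.9, 40.7 and 35 CPM after OSK. Of the 7 fits without 1 vector library, 4 called Ano5, 4 called Ctsk and 2 called Cldn12. Their edgeR adjusted p was highest without Old control replicate 1 (0.202, 0.121 and 0.332). Timp3, a metalloproteinase inhibitor that the RPE deposits in Bruch's membrane, was at 5266, 1248 and 3052 CPM and at 1368, 746, 1325 and 1259 CPM, with overlapping groups (adjusted p = 0.0588).

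Most growth-related lists had mostly positive values. Purine synthesis did not, and serine, glycine and one-carbon metabolism was evenly divided (10 of 20 positive, median -0.03). Of 81 cytosolic ribosomal protein genes, 80 had a positive log2 fold change (median 0.72). None was called, 50 were higher at the looser threshold, and in 38 every OSK library lay above every control. Rplp2, a protein of the ribosomal stalk, was at 86.3, 88.5 and 90.2 CPM in the controls and at 231, 136, 154 and 118 CPM after OSK. Rpl39 was at 59.5, 70.5 and 59.6 CPM and at 178.5, 132, 129 and 84.0 CPM. Old OSK replicate 1 was the highest library for both genes. With the surface score as a covariate the median of the list was 0.34. Of 37 translation factors and tRNA synthetases, 27 had positive values (median 0.15) and 6 were higher at the looser threshold, among them the elongation factor subunit Eef1b2. Of 35 replication genes, 30 had positive values (median 0.83), 0 were called and 9 were called higher with the block, against 2.5% of all genes tested in that fit. Mcm2, a subunit of the replicative helicase, was at 15, 12.8 and 13.8 CPM in the controls and at 20.3, 22.4, 21.6 and 18.4 CPM after OSK (edgeR adjusted p = 0.0523). Tk1, the thymidine kinase of dividing cells, was at 2.04, 3.58 and 3.06 CPM and at 11.1, 10.1, 9.47 and 3.72 CPM, with Old OSK replicate 4 close to the controls. With the surface score as a covariate the median of the replication list was 0.14. Of 28 cholesterol genes, 26 had positive values (median 0.54, and 0.22 with the surface score), and 0 were called. Of 19 purine synthesis genes Paics alone was called, and the list's median was -0.08.

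Immune lists had positive values as well. Of 23 genes of class I antigen presentation, 20 had a positive log2 fold change (median 0.69). 1 was called, 11 were higher at the looser threshold, and in 13 every OSK library lay above every control. The called gene was B2m, the light chain of class I molecules, at 488, 387 and 495 CPM in the controls and at 823, 754, 756 and 663 CPM after OSK. With the surface score as a covariate its log2 fold change was 0.84 (edgeR adjusted p = 0.0344), and the median of the list was 0.39. B2m was not called with the block (adjusted p = 0.0735), with M as a covariate (0.0616) or without Old control replicate 1 (0.105). H2-K1, a class I heavy chain that can share reads with its relatives, was at 153, 232 and 273 CPM in the controls and at 608, 431, 461 and 341 CPM after OSK. Tap1, a subunit of the peptide transporter that was chosen after its values had been seen, was at 12.8, 19.0 and 19.1 CPM and at 55.7, 39.0, 51.1 and 28.9 CPM. Both pairs of groups lay apart, and neither gene was called (adjusted p = 0.0558 and 0.0631), though Tap1 was with the block (0.0483). All 38 interferon-stimulated genes tested had a positive log2 fold change (median 0.76, and 0.37 with the surface score). None was called, and 6 were higher at the looser threshold. Igtp, an interferon-induced GTPase, was at 11.9, 12.6 and 13.6 CPM in the controls and at 22.7, 17.3, 31.5 and 34.3 CPM after OSK. Here Old OSK replicate 4 was the highest library. Of 19 macrophage markers, 17 had positive values (median 0.38) and 0 were called.

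Keratins and other epithelial genes had high medians and a wide spread between the OSK libraries. Of 14 keratins of simple and stratified epithelia, 10 had positive values (median 2.07) and 0 were called. Krt5, the basal keratin of stratified epithelia, was at 389, 1473 and 920 CPM in the controls and at 8581, 6336, 6342 and 1252 CPM after OSK. Krt12, the keratin of corneal epithelium, was chosen after its values had been seen and was at 63.3, 39.9 and 38.4 CPM and at 3096, 1533, 946 and 74.5 CPM. Old OSK replicate 4 lay within or just above the range of the controls for both genes. All 23 genes of the added surface epithelium list had positive values (median 2.34), with 0 called, and 13 called higher with the block, which leaves out Old OSK replicate 4. Annexins and S100 proteins (15 of 16 positive, median 1.12) and immediate early genes (20 of 21 positive, median 0.87) also had 0 called. With the surface score as a covariate, the medians were -0.09 for keratins, 0.30 for annexins and S100 proteins and 0.32 for immediate early genes. The score is built from the mean log2 CPM of the added surface epithelium list, which overlaps the keratin list. The lower keratin median was therefore partly built in and shows nothing about keratins apart from that list.

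Genes of the pluripotency network other than the vector's were mostly low. Of 30 such genes 16 passed the filter on low counts, and 14 of these had positive values (median 0.43, and 1.32 without Old control replicate 2). None of the 16 was called. The filter keeps a gene that is counted in as many libraries as the smallest group holds. A gene near 0 in the controls can thus pass through the OSK libraries, so the positive values and the median are partly built in. Fgf4, a growth factor gene that OCT4 and SOX2 activate together in embryonic stem cells, was at 0, 0.135 and 0 CPM in the controls and at 0.920, 1.75, 1.34 and 1.24 CPM after OSK (edgeR adjusted p = 0.0806). Nr0b1, which encodes the orphan nuclear receptor DAX1, was at 0 CPM in the 3 controls and at 0.242, 1.75, 0.926 and 0.620 CPM after OSK (adjusted p = 0.072). Both were detected in every OSK library at 1.75 CPM or less. Of 30 Polycomb genes (median -0.01), 2 fell, Bmi1 and Yaf2, both parts of Polycomb repressive complex 1. Yaf2 was at 34.4, 38.7 and 31.3 CPM in the controls and at 20.5, 20.7, 23.5 and 24.9 CPM after OSK, without overlap. It was called in 2 of the 7 fits without 1 vector library, with the highest edgeR adjusted p without Old control replicate 1 (0.17).

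Energy metabolism lists had small negative medians. Of 76 nuclear genes of oxidative phosphorylation, 71 had a negative log2 fold change (median -0.16), 0 were called and 5 were lower at the looser threshold, namely Ndufab1, Ndufc2, Uqcrfs1, Cycs and Atp5g1 (log2 fold changes of -0.54 to -0.29). Of 23 glycolysis genes 17 were negative (median -0.15) and 0 were called. Without Old control replicate 2 the median of the glycolysis list was positive (0.08). Of 21 genes of glycogen metabolism (median -0.20) Phka1 was called. Of 50 lysosomal genes (median -0.15) Ctsk was called, and of 32 autophagy genes (median -0.06) Ulk2, a kinase that starts autophagosome formation, fell. Ulk2 was at 43.5, 45.7 and 38.4 CPM in the controls and at 29.6, 32, 32.3 and 34.2 CPM after OSK. It was called in 3 of the 7 fits without 1 vector library, with the highest edgeR adjusted p without Old control replicate 1 (0.232).

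**Figure D4:**
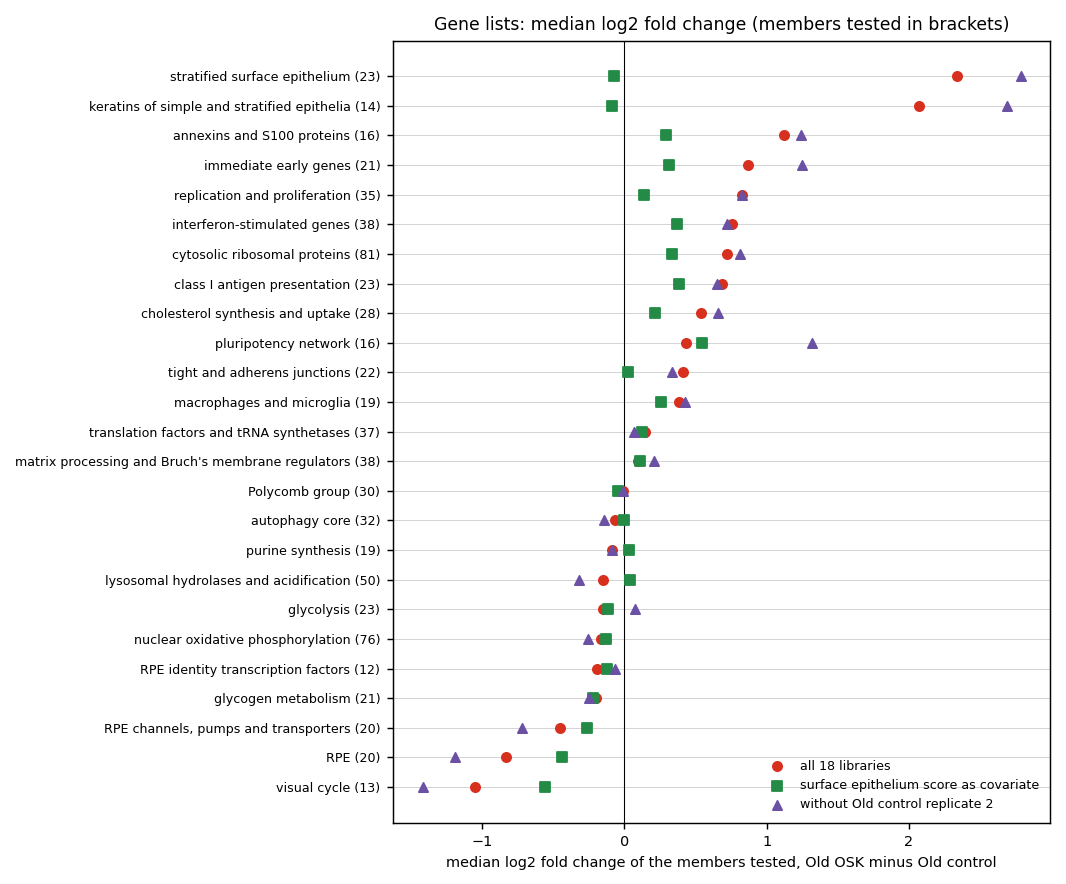
Median log2 fold change of Old OSK against Old control (horizontal axis) for each gene list (rows, with the number of members tested), with all libraries (circles), with the surface epithelium score as a covariate (squares) and without Old control replicate 2 (triangles). Keratins have a median of 2.07 with all libraries and of -0.09 with the surface score, which is built from a list that overlaps the keratins. Ribosomal protein genes stay above 0 (0.72 and 0.34) and visual cycle genes below (-1.04 and -0.56).

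The OSK response was also set against the difference between Old and Young, by testing whether the log2 fold change of Old OSK against Old control differed from that of Old against Young. The contrasts share no library. The letter M stands in the names of 3 of the 7 Young and 0 of the 4 Old libraries. The OSK value was higher for 28 genes (0.176%) and lower for 23 (0.144%) at an edgeR adjusted p under 0.05. Of the 28, 18 rose after OSK, 10 were called between Old and Young, and 25 had opposite signs in the contrasts. The test picks genes whose values differ, so opposite signs are partly built in. Pcolce2 differed by 2.77 (SE 0.31, adjusted p = 0.000631), Plekha4 by 2.67 (SE 0.34, adjusted p = 0.00196) and Paics by 0.92 (SE 0.12, adjusted p = 0.00196). In all 3 genes the log2 fold change with age was negative and not called (-0.52, -0.57 and -0.15). Most genes called after OSK had the same sign with age: 40 of the 65 that rose and 46 of the 51 that fell. Called between Old and Young with the same sign were 13 of the 65 and 20 of the 51. Called there with the opposite sign were 2 of the 65 and 1 of the 51.

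Of the 23 genes with a lower OSK value, 21 were called between Old and Young and 3 (Ano5, Slc4a10 and Hcn3) between Old OSK and Old control. 6 of the 23 are macrophage and microglia markers on the list used here: Lyz2, Ctss, Trem2, Tyrobp, C1qc and Laptm5. Lyz2, which encodes lysozyme, was at 23.4 to 41.0 CPM in Young, 190.4 to 467 CPM in Old, 192 to 476 CPM in Old control and 268 to 396 CPM in Old OSK. The Old OSK libraries lay in the range of Old, Old control replicate 2 lay just above it, and the log2 fold change after OSK was -0.11, not called. The difference from the age contrast was -3.43 (SE 0.38, edgeR adjusted p = 0.000631). Fam234b differed by -1.53, Trem2, a lipid receptor of microglia, by -2.43 and Ctss, which encodes cathepsin S, by -2.42. After OSK, Ctss (0.48), Trem2 (0.28), Tyrobp (0.38), C1qc (0.62) and Laptm5 (0.12) had positive log2 fold changes, not called. Their log2 fold changes with age were larger (1.76 to 2.90). Without Old control replicate 1, 7 genes had a higher and 11 a lower OSK value, and without Old control replicate 2 these counts were 43 and 47. Without Old OSK replicate 4 they were 44 and 37, and with the letter M as a covariate they were 28 and 21.

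**Figure D5:**
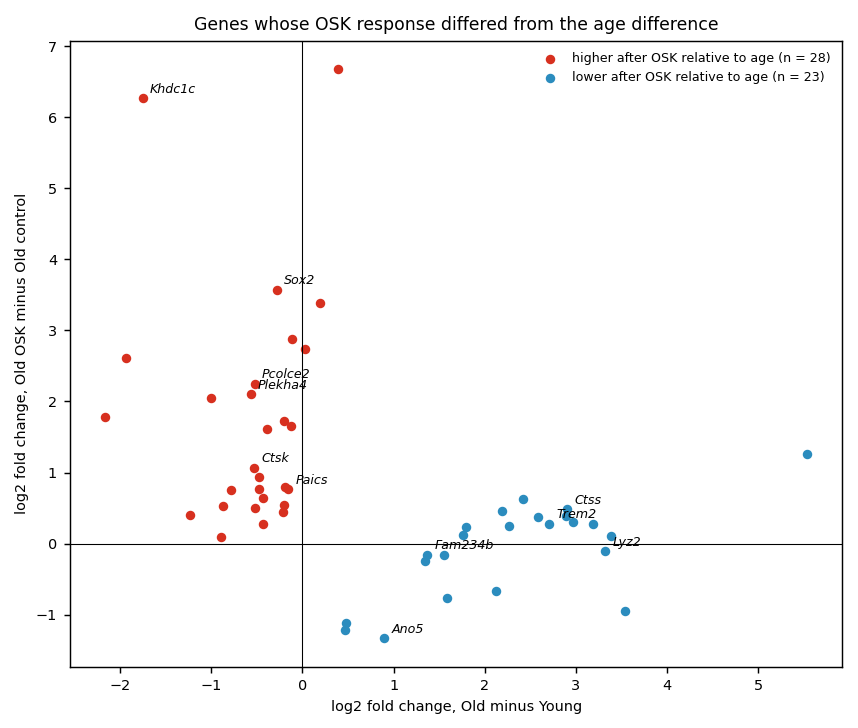
Log2 fold change of Old OSK against Old control (vertical axis) against that of Old against Young (horizontal axis) for the genes whose values differed in the test of the difference, 1 point per gene. The 28 genes with a higher OSK value lie mostly above 0 on the vertical axis, and Lyz2 lies near 0 on the vertical axis at a high value with age.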

How the data were processed

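Per the labels' protocols, TRIzol-extracted RNA was turned into full-length cDNA (SMART-Seq, low input) and then into Nextera XT libraries. The authors deposited 1 table of read counts per gene for 18 libraries. The submitters' processing notes name STAR 2.7.1a and featureCounts 1.6.2, and list both GRCm38 and GRCh38 as builds. Annotation and strand setting are not given in the sources used here. All 18 columns matched a library by title (0 unmatched). Library totals were 18104828 to 32348136. Reads were PCR-amplified without molecular identifiers, so counting error is a lower limit.

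Counts were filtered (filterByExpr, minimum count 10, minimum total 15) and scaled by TMM in edgeR 4.0.16 (R 4.3.3). All 18 libraries were fitted with 4 group means by glmQLFit and glmQLFTest, with Benjamini-Hochberg adjustment over 15944 genes. The script was tested on simulated data. Alternatives used DESeq2 1.42.0, limma 3.58.1, other filters, scalings and covariates, and fits without single libraries.

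Libraries numbered 1 to 3 in both vector groups deviated together from their group means (r = 0.103, 0.421 and 0.339 across genes), and were therefore paired by number in the block fit. Some unmatched numbers correlated as much (control 3 with OSK 1, r = 0.392, and control 1 with OSK 3, r = 0.098). No label says what a number marks, and the titles' numbers, used here, differ from those in the library names.

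The members, gene lists and tests were chosen with earlier results of these data known. Named genes are the vector's genes, the 12 lowest p per direction among called genes with mean log2 CPM of at least 3, the 6 largest changes per direction with mean log2 CPM of at least 1, the 3 lowest p per list with its called genes, and 4 per direction for the difference from age. 1 gene that meets this rule is not reported here. Genes named outside this rule were chosen after their values were seen. The promoter examples were also chosen so. So were the 12 genes called with the block, M, both scores and in all 7 fits without a vector library. Gene locations are from a GRCm38 annotation, and promoters from RefSeq.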

Additional observations from a re-analysis of the deposited data

Results flagged for a closer look

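Among 100 named genes, 5 had 1 Old OSK library far from the other 3 by Dixon's criterion for 4 values, and about 1 in 20 groups is flagged by chance. The calcium-binding annexin Anxa4 was at 41.3 CPM in Old OSK replicate 4, below 72.5 to 77.5 CPM in the others. The ribosomal protein gene Rps28 was at 157 CPM in Old OSK replicate 1, above 82.0 to 89.8 CPM. The interferon regulatory factor gene Irf7 was at 52.3 CPM in the same library, above 27.0 to 29.3 CPM. The muscle enolase gene Eno3 was at 47.4 CPM in Old OSK replicate 2, above 27.2 to 29.2 CPM. The macrophage receptor gene Csf1r was at 136 CPM in Old OSK replicate 2, below 215 to 227 CPM. None of these genes was called in Old OSK against Old control.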

How the results depend on the processing

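Counts of called genes moved with the processing, while none of the 38 named genes called in Old OSK against Old control changed sign under any of 31 alternatives. Against 65 higher and 51 lower, DESeq2 gave 999 and 641, limma with library weights 2403 and 2311, M as a covariate 41 and 17, and the surface epithelium score as a covariate 29 and 2. The replicate block gave 381 and 80 in 6 paired libraries, and the same libraries without the block 898 and 92. The 2 groups alone gave 2 (Pou5f1 and Avil) and 0 (3089 genes at an unadjusted p under 0.05). A filter at a mean of 50 counts gave 84 and 79. Lower genes moved to 29 with median-ratio size factors (64 higher) and 22 without a filter. Without a single vector library the counts ran from 12 to 1007 higher and from 1 to 1874 lower, and without Old control 2 and Old OSK 4 together they were 1664 and 2192. Libraries outside the contrast mattered through the shared spread: without Old replicate 4 the counts were 501 and 456, and without Old replicate 1 106 were higher. Lower genes numbered 26 without Old replicate 2, 30 without Young replicate 1 and 27 without Young replicate 6.

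For the difference from the age contrast (28 higher, 23 lower), limma with library weights gave 360 and 370, and fits without a single library gave 7 to 44 and 11 to 47. Some uncalled values changed sign: Lyz2 (-0.11) was at 0.17 with library weights, between -0.40 and 0.15 without single vector libraries, highest without Old control replicate 2, and 0.02 without Old control 2 and Old OSK 4. With the surface score, Fam234b (-0.16) was at 0.01, and the positive values of Krt6a (2.80) and Krt5 (2.60) became -0.10 and -0.03. The cause of these changes was not tested. Covariates for the surface and rod scores, and fits without Young or Old libraries or without Old control 2 and Old OSK 4 together, were chosen after seeing the data. Genes under the count filter were not tested, and each arm without a library kept at least 2.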

Other observations

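Called genes that lie close together were listed, with no test of how often neighbours move together. Of the 116 called genes, 3 pairs lay under 20000 bases apart in the GRCm38 annotation, and all 6 genes rose. Beside Eif4e1b with Tspan17 and Khdc1a with Khdc1c, these were Paqr6, a progestin receptor family gene, and Bglap2 on chromosome 3, 9195 bases apart on opposite strands. Khdc1a and Khdc1c lie 16131 bases apart on the same strand of chromosome 1.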
